A study of Mus musculus with 9 samples.

Results

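Claudins and occludin are the membrane proteins of the tight junction, the seal that joins neighbouring epithelial cells near their apical surface. The 10 genes described here were read by name from a table of 24493 mouse genes: Cldn1, Cldn2, Cldn3, Cldn4, Cldn6, Cldn7, Cldn12, Cldn18, Cldn23 and Ocln. These genes were chosen with earlier results of these data known. Each was measured by bulk RNA-seq in 9 samples of late-stage mouse pancreatic tumor cells on a C57BL/6 background, all derived from the single tumor cell clone 6419c5 and taken from tumors that had been implanted under the skin. The samples form 3 groups of 3, which are tumors of wild-type clone cells (WT) and tumors of cells labelled Usp22-KOA and Usp22-KOB, both given as knockouts of the deubiquitinase gene Usp22. The sources used here do not give what sets A apart from B or how the tumor cells were separated from the host, and all samples rest on 1 clone. No label states that samples of a group came from separate mice, so the p-values reflect sample-to-sample spread that could be purely technical.

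Claudins polymerise within the membrane into strands, and strands of adjoining cells pair up. Some claudins close the space between cells, whereas others form pores that let ions and water through, so the mix of claudins sets how leaky an epithelium is. Occludin is a strand protein of a different family (MARVEL proteins), and the cytoplasmic ends of most claudins bind scaffold proteins of the ZO family. Duct epithelium of the pancreas carries tight junctions, and claudins such as Cldn4 and Cldn18 are known for high levels in pancreatic cancer.

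Values are in TPM (transcripts per 1000000), a length-corrected share of all transcripts in a sample, so levels of different genes can be compared. Differences are on the log2(TPM + 1) scale, with the standard error (SE) of the fit, and a change counted as called when limma gave a Benjamini-Hochberg adjusted p below 0.05, the adjustment running over all 13843 genes tested. On that scale the change of a low gene is understated, so levels as a percentage of the WT mean are given too. The test covered 8 of the 10 genes. Cldn1 and Cldn18 averaged 0.239 and 0.443 TPM over the 9 samples, below the minimum mean of 1 TPM, and were left out of the main fit. Usp22 itself averaged 55.3 ± 0.977 TPM in WT, 9.44 ± 0.867 for Usp22-KOA and 13.6 ± 1.62 for Usp22-KOB (SD, n = 3), so its RNA was reduced but not absent in both knockouts. Every library sums to 1000000 TPM and has 13037 to 13940 genes at 1 TPM or more. Over the genes tested, each library was more like its own group, as the lowest correlation between samples of a group was 0.972 and the highest between groups 0.945. Smaller sets of genes still varied within groups. The sum of 8 pan-leukocyte markers was 1081 TPM in the third Usp22-KOB sample, beside 2208 and 2083, and 573 TPM in the third Usp22-KOA sample, beside 1303 and 1037.

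Against WT, Usp22-KOA differed in 8 of the 8 claudin and occludin genes tested, 2 higher and 6 lower. The call of Cldn2, 1 of the 2 higher, held in only 8 of 18 alternative analyses. For comparison, 56.3% of all genes tested were called in Usp22-KOA, 29.4% higher and 26.9% lower. Because the claudin and occludin genes were chosen with earlier results known, shares over all genes are set beside them as a description, not a test. Usp22-KOB differed from WT in 6 of 8, all lower, against 37.1% of all genes called and 18.4% called lower. The median log2 difference of the 8 genes was -2.10 for Usp22-KOA and -1.61 for Usp22-KOB, beside medians of 0.0189 and -0.00749 over all genes. The genes took 4 courses. Cldn4, Cldn7, Cldn23 and Ocln fell to less than 20% of their WT level in both knockouts. Cldn12 fell less, and Cldn3 rose in Usp22-KOA and fell in Usp22-KOB. Cldn6 (lower) and Cldn2 (higher) were called in Usp22-KOA and not in Usp22-KOB. Both comparisons use the same 3 WT samples, so they are not independent of each other. With both knockouts averaged against WT, 6 of the 8 were called, 1 higher and 5 lower, where 50.0% of all genes were called, 25.9% higher and 24.1% lower.

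**Figure D1:**
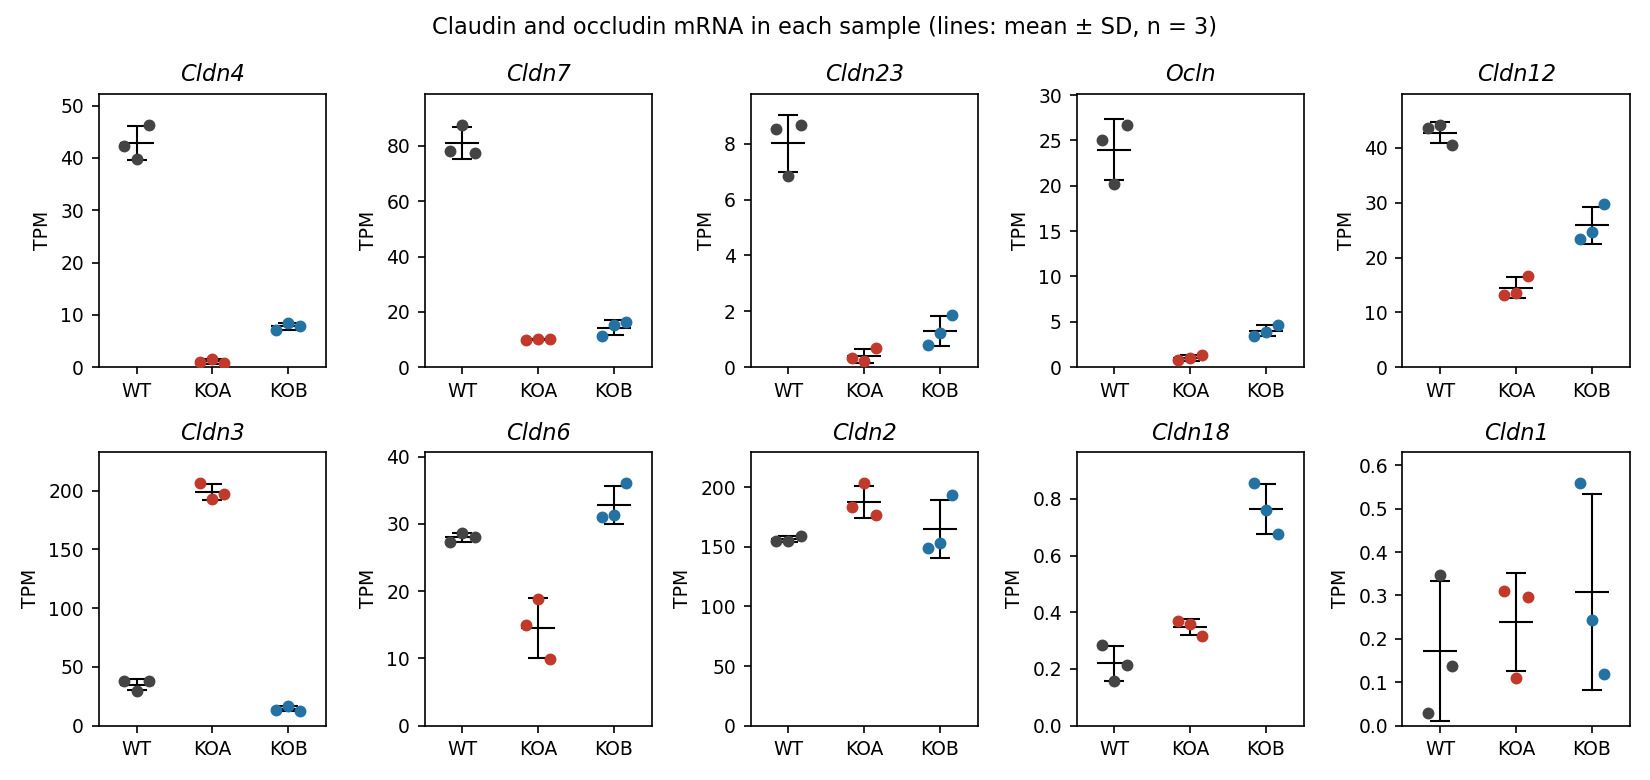
TPM of each of the 10 genes, on linear axes that start at 0 and differ by gene, in the 3 WT, 3 Usp22-KOA (KOA) and 3 Usp22-KOB (KOB) samples, where each point is 1 sample and the lines are the group mean ± SD. Cldn4, Cldn7, Cldn23 and Ocln are lower in all 6 knockout samples than in any WT sample, whereas Cldn3 is highest in Usp22-KOA.

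Before the values, the stretches of DNA just upstream of the start sites are shown for Cldn4, Cldn7 and Ocln, because these genes fell together, and for Cldn3, because it is the chromosomal neighbour of Cldn4 and moved the other way in Usp22-KOA. Each is the 250 bases before the outermost RefSeq start on the GRCm38.p6 build, written 5′ to 3′ on the gene's own strand. Capitals mark matches, on either strand, to GGGCGG (the GC box of SP and KLF factors, reading CCGCCC on the other strand) and CACCTG (the E-box of the Snail and ZEB repressors). Searches for AACNNGTT (grainyhead-like factors) and TATAAA were made as well, and no motif matches overlapped in the 4 sequences.
Cldn4, chr5:134946935-134947184, minus strand: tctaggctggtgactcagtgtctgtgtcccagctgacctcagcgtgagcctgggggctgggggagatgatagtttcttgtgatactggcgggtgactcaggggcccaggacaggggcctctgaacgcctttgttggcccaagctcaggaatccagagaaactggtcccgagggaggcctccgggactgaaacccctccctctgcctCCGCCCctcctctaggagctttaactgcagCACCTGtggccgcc
Cldn3, chr5:134985964-134986213, plus strand: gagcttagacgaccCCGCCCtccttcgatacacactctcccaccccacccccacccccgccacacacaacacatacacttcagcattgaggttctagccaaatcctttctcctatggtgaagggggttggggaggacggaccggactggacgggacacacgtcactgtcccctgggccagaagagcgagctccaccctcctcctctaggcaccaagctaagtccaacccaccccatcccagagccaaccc
Cldn7, chr11:69964529-69964778, plus strand: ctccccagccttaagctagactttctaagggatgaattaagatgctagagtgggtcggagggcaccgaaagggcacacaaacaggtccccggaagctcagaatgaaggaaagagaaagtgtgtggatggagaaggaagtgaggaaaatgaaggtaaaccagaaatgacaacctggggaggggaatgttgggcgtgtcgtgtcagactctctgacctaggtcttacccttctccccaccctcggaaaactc
Ocln, chr13:100552719-100552968, minus strand: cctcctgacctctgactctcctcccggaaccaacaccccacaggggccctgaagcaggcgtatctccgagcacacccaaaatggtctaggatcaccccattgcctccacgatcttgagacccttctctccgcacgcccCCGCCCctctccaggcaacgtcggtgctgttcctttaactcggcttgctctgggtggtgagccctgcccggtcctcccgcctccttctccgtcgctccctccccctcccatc

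The Cldn4 window held CACCTG beginning 14 bases before the start and a GC box at 44 bases. A GC box lay 236 bases before the Cldn3 start and 112 bases before that of Ocln, and the Cldn7 window held none of the 4 motifs. Of the 10 genes, 9 had a window among the promoters read. Cldn23, which fell with Cldn4, Cldn7 and Ocln, had none there and could not be shown. For the 9, 1 window per gene was counted (the outermost start, or for Cldn6 the single RefSeq window, whose start lies inside the annotated gene). CACCTG was present for 2 (Cldn4 and Cldn6), GGGCGG for 5, TATAAA for 1 (Cldn2, 35 bases before the start) and AACNNGTT for 0. The same motifs occur in 17.2%, 32.7%, 12.4% and 3.64% of all 32851 RefSeq windows of this length. At the inner RefSeq starts of Cldn7 and Ocln, which were not used for that count, the windows held 2 matches each to CACCTG. These inner windows also held GGGCGG, beginning 6 bases before the Cldn7 start and 43 bases before that of Ocln. The inner windows of Cldn12, not counted either, held GGGCGG beginning 13 and 73 bases before their starts. GC content was 62.0% for Cldn4, 60.8% for Cldn3, 64.0% for Ocln and 51.2% for Cldn7, beside a median of 52.4% over all windows. These matches describe the letters only and carry no measurement of a factor bound there.

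Cldn4, a barrier claudin and one of the receptors of Clostridium perfringens enterotoxin, has a single exon at chr5:134945119-134946934 (GENCODE M21, build GRCm38). The WT samples measured 42.3, 39.8 and 46.3 TPM, those of Usp22-KOA 0.933, 1.54 and 0.806, and those of Usp22-KOB 7.14, 8.38 and 7.85. The groups did not overlap anywhere, with Usp22-KOB between WT and Usp22-KOA. Cldn4 thus stood at 2.55% of its WT mean in Usp22-KOA and 18.2% in Usp22-KOB. On the log2 scale it fell by 4.40 ± 0.13 (SE) in Usp22-KOA (limma adjusted p = 5.16e-08) and by 2.32 ± 0.13 in Usp22-KOB (limma adjusted p = 6.02e-06). The knockouts also differed from each other, by -2.08 ± 0.13 (limma adjusted p = 4.56e-06), the largest difference downward among these genes. That last value shrank to -1.07 when 5 TPM in place of 1 was added before taking logs.

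Cldn7, which binds the adhesion protein EpCAM, was the second most abundant of these genes in WT. The WT values were 78.2, 87.6 and 77.4 TPM, its Usp22-KOA values 10.01, 10.11 and 10.33, and its Usp22-KOB values 11.1, 15.2 and 16.4. All 6 knockout samples lay far below WT, and the knockouts were close to each other without overlapping. Cldn7 fell by 2.88 ± 0.12 in Usp22-KOA and by 2.44 ± 0.12 in Usp22-KOB (limma adjusted p = 2.69e-07 and 2.58e-06), leaving 12.5% and 17.6% of the WT mean. The difference between the knockouts was -0.43 ± 0.12 (limma adjusted p = 0.0166). It was -0.38 with an adjusted p of 0.0615 in limma without the second Usp22-KOB sample, the highest of the 18 alternatives, whose lowest adjusted p was 0.000644.

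Ocln encodes occludin, at chr13:100496507-100552718. The WT samples had 25.0, 20.2 and 26.7 TPM, against 0.747, 0.999 and 1.36 in Usp22-KOA, with 3.46, 3.90 and 4.64 in Usp22-KOB. As for Cldn4, the 3 groups were separate and Usp22-KOA was lowest. Ocln was at 4.31% of WT in Usp22-KOA, a fall of 3.62 ± 0.15 (limma adjusted p = 2.62e-07), and at 16.7% in Usp22-KOB, a fall of 2.32 ± 0.15 (limma adjusted p = 1.22e-05). The difference of Usp22-KOA from Usp22-KOB was -1.30 ± 0.15 (limma adjusted p = 0.000145). With 5 TPM added, the Usp22-KOA value was -2.26 and the difference between the knockouts -0.58, both still called.

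Cldn23, a less studied claudin of epithelia, was the lowest of the 8 tested genes. It measured 8.53, 6.83 and 8.67 TPM in WT, against 0.321, 0.207 and 0.673 in Usp22-KOA, with 0.807, 1.21 and 1.87 in Usp22-KOB. Again no groups overlapped, although the highest Usp22-KOA and lowest Usp22-KOB samples were near each other. Cldn23 fell by 2.69 ± 0.20 in Usp22-KOA and fell by 1.99 ± 0.20 in Usp22-KOB (limma adjusted p = 6.6e-06 and 0.000145), to 5% and 16.2% of WT. The sizes on the log2 scale move with the amount added before taking logs, from -4.12 in Usp22-KOA with 0.1 TPM to -1.27 with 5 TPM, and in Usp22-KOB to -1.05 with 5 TPM. Between the knockouts the difference was -0.70 ± 0.20 (limma adjusted p = 0.0186), and it was no longer called under 4 alternatives: -0.22 (0.0562) with 5 TPM added, -0.37 (0.169) after quantile normalization, -0.67 (0.0507) without the first Usp22-KOA sample and -0.60 (0.0624) without the second. Over all its alternatives the adjusted p ran from 0.0105 to 0.169.

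Cldn12 is a claudin that lacks the usual end for binding scaffold proteins. The WT samples stood at 43.6, 44.2 and 40.6 TPM, the Usp22-KOA samples at 13.2, 13.6 and 16.7, and the Usp22-KOB samples at 23.4, 24.6 and 29.7. Its order was that of Cldn4 and Ocln, WT above Usp22-KOB above Usp22-KOA with no overlap, but the steps were smaller. Cldn12 kept 33.9% of its WT level in Usp22-KOA and 60.5% in Usp22-KOB, a fall of 1.50 ± 0.11 (limma adjusted p = 5.43e-06) and of 0.71 ± 0.11 (limma adjusted p = 0.00137). The knockouts differed by -0.80 ± 0.11 (limma adjusted p = 0.000385).

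Cldn3 moved in opposite directions in the knockouts. This barrier claudin, like Cldn4 a receptor of the clostridial toxin, lies in a single exon at chr5:134986214-134987472 on the strand opposite to Cldn4, and 39.3 kb separate the genes. WT samples measured 37.6, 29.4 and 37.7 TPM, Usp22-KOA samples 206, 193 and 197, and Usp22-KOB samples 13.6, 16.7 and 12.5. The groups were widely separated, with Usp22-KOA at the top and Usp22-KOB at the bottom. Cldn3 rose 5.70-fold in Usp22-KOA, by 2.49 ± 0.12 (limma adjusted p = 5.08e-07), and fell by 1.24 ± 0.12 in Usp22-KOB (limma adjusted p = 0.000108), to 40.9% of WT. Usp22-KOA exceeded Usp22-KOB 14.0-fold, a difference of 3.72 ± 0.12 (limma adjusted p = 1.65e-07). When the knockout groups were averaged, Cldn3 was 0.63 ± 0.10 above WT (limma adjusted p = 0.00106), a value that describes neither knockout, and with the 6 knockout samples taken as 1 group the adjusted p in limma was 0.701. The annotated gene Wbscr25 overlaps Cldn3 by 40 bases on the other strand and averaged 0.254, 0.494 and 0.306 TPM in WT, Usp22-KOA and Usp22-KOB.

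Cldn6, a claudin best known from embryonic epithelia, was called lower in Usp22-KOA. It measured 27.3, 28.6 and 28.1 TPM in WT, against 14.9, 18.8 and 9.88 in Usp22-KOA, with 31.0, 31.3 and 36.0 in Usp22-KOB. All Usp22-KOA samples were below WT and spread widely, and all Usp22-KOB samples were slightly above WT. Cldn6 fell by 0.94 ± 0.18 in Usp22-KOA (limma adjusted p = 0.0019), to 51.9% of WT, whereas the Usp22-KOB difference of 0.22 ± 0.18 was not called (limma adjusted p = 0.384). The knockouts differed by -1.16 ± 0.18 (limma adjusted p = 0.000759).

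Cldn2, the claudin of a channel for cations and water, was the most abundant claudin in WT and varied least. WT samples had 155, 155 and 159 TPM, Usp22-KOA samples 183, 203 and 177, and Usp22-KOB samples 149, 153 and 193. Usp22-KOA lay above WT in every sample, while 2 Usp22-KOB samples lay below WT and the third above it. The Usp22-KOA difference was 0.26 ± 0.10, or 1.20-fold, with a limma adjusted p of 0.044, and its adjusted p ran from 0.00394 to 0.175 over 18 alternatives, 8 of which kept the call. Among those that ended it, leaving out the second Usp22-KOA sample gave 0.20 (adjusted p = 0.143 in limma) and leaving out 1 of the WT samples 0.25 to 0.27 (0.0816 to 0.0996). Others were the removal of the first Usp22-KOA sample (0.0769), of the second Usp22-KOB sample (0.0513), and quantile normalization (0.15, 0.175). In Usp22-KOB Cldn2 differed from WT by 0.07 ± 0.10 (limma adjusted p = 0.61), a value that became -0.049 without the third Usp22-KOB sample (0.548). Usp22-KOA and Usp22-KOB differed by 0.19 ± 0.10 (limma adjusted p = 0.126), or by 0.31 (0.00374) without that same sample.

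**Figure D2:**
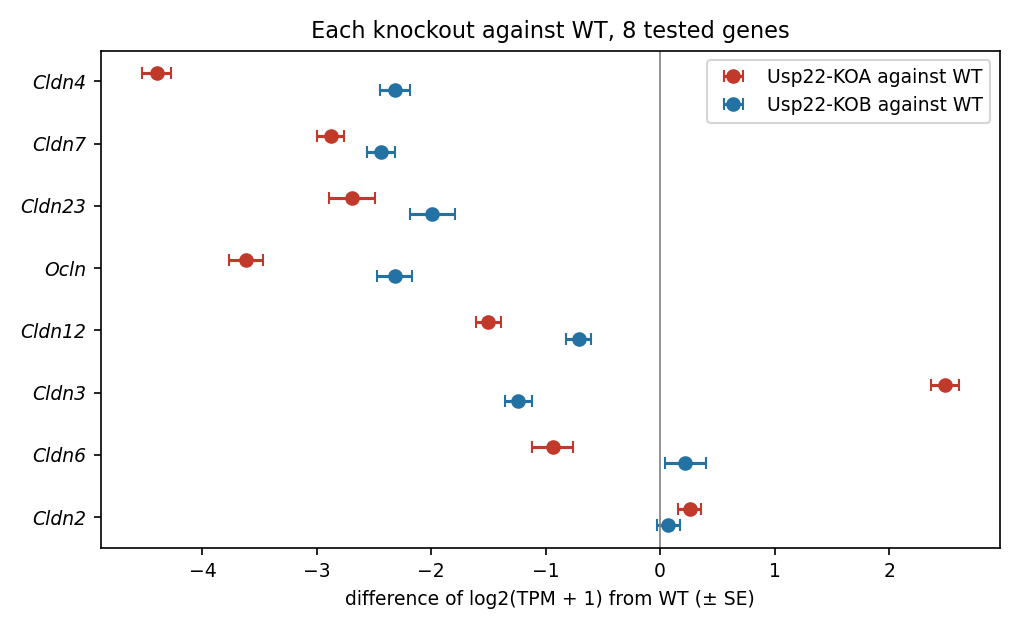
Log2 differences of the 8 tested genes with their standard errors, for each knockout against WT, with the horizontal axis in log2(TPM + 1) units. Cldn4, Cldn7, Cldn23, Ocln and Cldn12 are below 0 in both knockouts, and Cldn3 is at 2.49 in Usp22-KOA and -1.24 in Usp22-KOB.

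Cldn18, a claudin of stomach and lung epithelium, was nearly absent. Its values were 0.284, 0.159 and 0.215 TPM in WT, against 0.369, 0.357 and 0.317 in Usp22-KOA, with 0.854, 0.759 and 0.677 in Usp22-KOB. All samples were under 1 TPM, with Usp22-KOB above the others. In an alternative fit with no minimum level, the Usp22-KOB difference was 0.53 (limma adjusted p = 0.000712) and the Usp22-KOA difference 0.146 (limma adjusted p = 0.104). These differences rest on values under 1 TPM. Cldn18 shares 8869 bases with the antisense gene Gm16004, and whether reads were assigned by strand is unknown here. Cldn1, the claudin of the epidermal barrier, had 0.0299, 0.348 and 0.137 TPM in WT, against 0.311, 0.109 and 0.296 in Usp22-KOA, with 0.558, 0.243 and 0.12 in Usp22-KOB, with all groups overlapping. In the same alternative fit Cldn1 differed by 0.0851 in Usp22-KOA (limma adjusted p = 0.675) and by 0.153 in Usp22-KOB (limma adjusted p = 0.488).

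The test of Usp22-KOA against Usp22-KOB called 7 of the 8 genes, 6 lower and 1 (Cldn3) higher in Usp22-KOA, while 51.7% of all genes were called, 24.2% lower and 27.5% higher. Values of the knockouts did not overlap for 7 of the 8 genes, beside 58.3% of all genes tested. For the same 7, Cldn2 being the exception, no pair of the 3 groups overlapped, which holds for 23.7% of all genes tested. Cldn4, Cldn7, Cldn12, Cldn23 and Ocln were lower in all 6 knockout samples than in every WT sample, an arrangement seen in 14.7% of genes tested.

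These changes reordered the claudins. In WT the order of mean levels was Cldn2, Cldn7, Cldn4, Cldn12, Cldn3, Cldn6, Ocln and Cldn23, and only Cldn4 and Cldn12 overlapped as neighbours among these. In Usp22-KOA the order became Cldn3, Cldn2, Cldn6, Cldn12, Cldn7, Cldn4, Ocln and Cldn23, in which Cldn3 overlapped Cldn2, Cldn6 overlapped Cldn12, and Cldn4 overlapped Ocln. In Usp22-KOB it was Cldn2, Cldn6, Cldn12, Cldn3, Cldn7, Cldn4, Ocln and Cldn23, with overlap between Cldn3 and Cldn7 alone of these neighbours.

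The summed level of all 32 claudin genes in the table, 12 of which were listed at 0 in every sample, was 419 ± 2.49 TPM in WT, 448 ± 13.3 for Usp22-KOA and 276 ± 32.5 for Usp22-KOB (SD, n = 3). Cldn2 made up 37.3% of that sum in WT, 41.9% for Usp22-KOA and 59.6% for Usp22-KOB. The share of Cldn3 was 8.32% in WT, 44.4% for Usp22-KOA and 5.23% for Usp22-KOB. Cldn7 and Cldn4, which together with Cldn2 led the WT order, went from 19.4% and 10.2% in WT to 2.27% and 0.243% in Usp22-KOA and to 5.13% and 2.84% in Usp22-KOB. Cldn6 took 6.68% in WT, 3.23% for Usp22-KOA and 11.9% for Usp22-KOB, and Cldn12 took 10.2%, 3.25% and 9.37%. The WT mixture was therefore spread over several claudins, that of Usp22-KOA was mostly Cldn2 and Cldn3, and that of Usp22-KOB was mostly Cldn2.

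**Figure D3:**
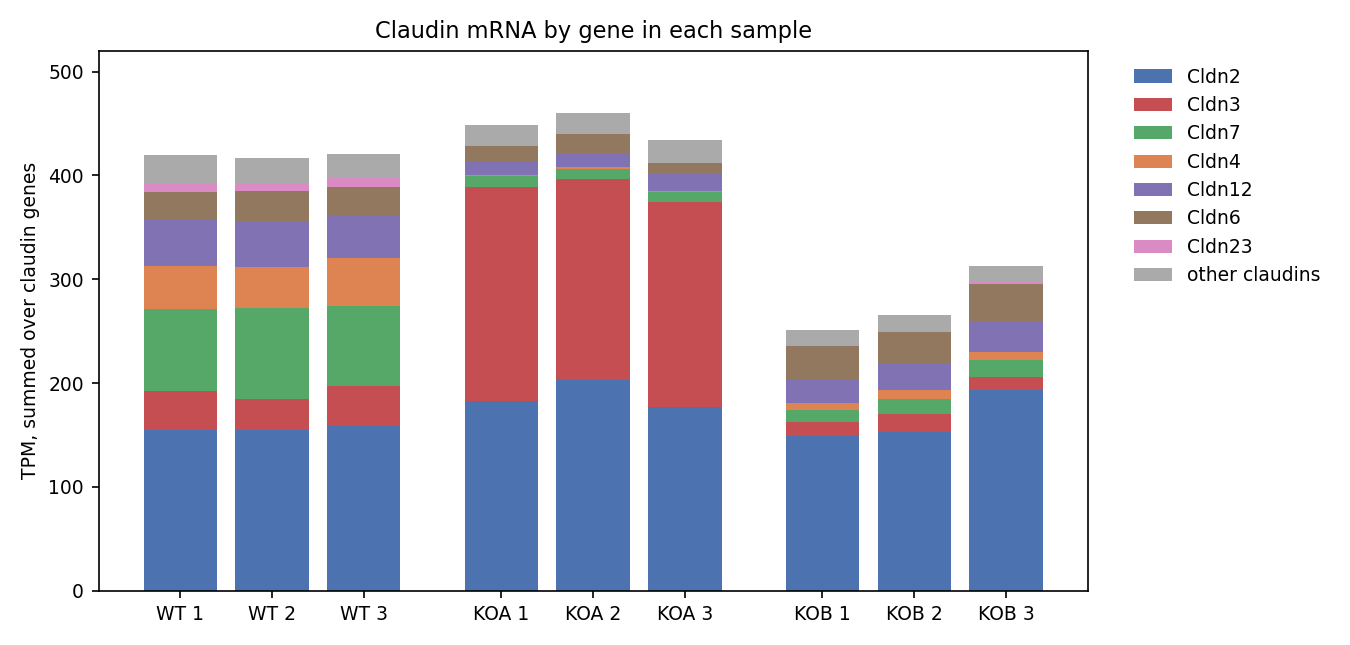
TPM summed over all claudin genes in each of the 9 samples, as stacked bars that start at 0 with 1 colour per claudin (KOA and KOB stand for Usp22-KOA and Usp22-KOB). Cldn3 holds 44.4% of the sum on average in Usp22-KOA against 8.32% in WT, and the Usp22-KOB bars are the lowest, with Cldn2 as 59.6% of their sum.

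In bulk tumor samples, fewer epithelial cells and less RNA per cell cannot be told apart, so the genes were also read beside epithelial markers. The sum of Epcam, Cdh1, Krt7, Krt8, Krt18 and Krt19 was 7760 to 8260 TPM in WT, 6250 to 7030 in Usp22-KOA and 6810 to 8320 in Usp22-KOB. All 6 were present in every group, but they did not move together. In Usp22-KOA Epcam stood at 9.94% of WT, Krt7 at 16.2%, Krt18 at 52.5%, Cdh1 at 70.2%, Krt8 at 99.2% and Krt19 at 136%, with 4 called lower and 1 higher. In Usp22-KOB Epcam was at 8.26% and Krt7 at 72.1%, both called lower, and the other 4 at 88.3% to 106% were not called. Per 1000 TPM of Krt8 plus Krt18, a simple-epithelial keratin pair, Cldn4 stood at 3.22% of its WT ratio in Usp22-KOA and 17.5% in Usp22-KOB, Ocln at 5.46% and 15.9%, Cldn23 at 6.31% and 15.2%, and Cldn7 at 15.7% and 16.7%. These ratios hold for the pair Krt8 and Krt18, of which Krt18 alone fell in Usp22-KOA, and ratios to the other epithelial markers were not computed. The same ratio for Cldn12 was 42.6% of its WT ratio in Usp22-KOA and 57.8% in Usp22-KOB. For Cldn3 it was 716% and 39.7%, and for Cldn6 65.1% and 112%. Cldn2 per 1000 keratin TPM was 35.0, 37.7 and 37.3 in WT, 50.8, 61.8 and 53.2 for Usp22-KOA and 36.0, 36.2 and 38.6 in Usp22-KOB, so that on this ratio the third Usp22-KOB sample lay close to the others. The third sample of Usp22-KOB had the highest Cldn2, Cldn6, Cldn7, Cldn12, Cldn23 and Ocln values of its group. Cldn3 (12.5 TPM, beside 13.6 and 16.7), Cldn18 and Cldn1 were lowest in that sample, and Cldn4 lay between (7.85 TPM, beside 7.14 and 8.38). That sample also had the highest Krt8 plus Krt18 sum (4998 TPM, beside 4135 and 4238) and the lowest leukocyte markers of its group. Whether these differences are linked was not tested.

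Markers of other cells moved with the groups as well. The sum of 8 pan-leukocyte markers was 481 to 811 TPM in WT, 573 to 1300 in Usp22-KOA and 1080 to 2210 in Usp22-KOB, and that of 8 T and NK cell markers 8.004 to 15.05, 38.6 to 90.9 and 21.1 to 56.3. Fibroblast markers (8 genes) summed to 484 to 899 TPM in WT, 181 to 209 in Usp22-KOA and 773 to 1180 in Usp22-KOB, and endothelial markers (10 genes) to 48.8 to 65.1, 14.2 to 20.4 and 37.7 to 55.9. Keratinocyte markers (9 genes, Dsg1a listed at 0 throughout) summed to 25.4 to 29.5, 9.999 to 13.45 and 16.9 to 18.6 TPM. Their part in the claudin differences was not tested.

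Most other claudins were low or absent, apart from Cldn15 and the claudin-domain gene Cldnd1. Of 16 further claudin and claudin-domain genes by symbol, 4 reached a mean of 1 TPM, 1 being higher and 2 lower in Usp22-KOA (median log2 difference -0.231), and 1 higher and 1 lower in Usp22-KOB (median 0.0192). Cldn15, an intestinal cation-pore claudin, measured 14.1, 13.8 and 11.4 TPM in WT, against 8.501, 8.439 and 10.66 in Usp22-KOA, with 2.32, 3.62 and 3.46 in Usp22-KOB. It was thus lowest in Usp22-KOB, with a fall of 1.78 there (limma adjusted p = 5.14e-05). The fall of 0.47 in Usp22-KOA had a limma adjusted p of 0.0263, and the call was lost (0.0795 to 0.0857) without the first or second WT sample or the first or second Usp22-KOA sample. Cldn5, the claudin of endothelium, averaged 2.68 TPM in WT, against 0.371 for Usp22-KOA and 2.77 for Usp22-KOB. The endothelial marker sum was also lowest in Usp22-KOA (14.2 to 20.4 TPM, beside 48.8 to 65.1 in WT), and its part in the Cldn5 difference was not tested. The log2 difference of Cldn5 was -1.41 in Usp22-KOA (limma adjusted p = 0.000614) and 0.05 in Usp22-KOB (0.878).

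Cldnd1, which shares the claudin domain, rose in Usp22-KOA from 41.7 to 78.0 TPM, by 0.89 (limma adjusted p = 2.95e-05). In Usp22-KOB it averaged 51.5 TPM, a difference of 0.30 (limma adjusted p = 0.0247) that was lost without the second WT sample (0.0804), the first Usp22-KOB sample (0.0514) or the third (0.0614). Cldn20 averaged 1.10, 0.994 and 1.01 TPM in WT, Usp22-KOA and Usp22-KOB and was not called in either knockout. Cldn8 and Cldn10, both named after their values were seen, were not tested because their overall means (0.465 and 0.851 TPM) were under 1 TPM. Cldn8 averaged 1.27, 0.0141 and 0.111 TPM in WT, Usp22-KOA and Usp22-KOB. Cldn10 averaged 0.758, 0.0416 and 1.75 TPM in the same order, with WT and Usp22-KOB samples overlapping. Cldn34c1, outside the symbol rule and named after its values were seen, averaged 4.24 TPM in WT, against 8.80 for Usp22-KOA and 4.77 for Usp22-KOB.

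The partners of claudins in the junction did not all follow them. Counts in this and the next lists stand beside 56.3% of all genes called in Usp22-KOA (29.4% higher, 26.9% lower) and 37.1% in Usp22-KOB (18.7% higher, 18.4% lower). Among 9 tested membrane partners, 3 were higher and 6 lower in Usp22-KOA (median log2 difference -0.496), and 2 higher and 5 lower in Usp22-KOB (median -0.477). Jam2, a junctional adhesion molecule, measured 5.37, 4.34 and 4.80 TPM in WT, against 97.5, 114 and 75.2 in Usp22-KOA, with 10, 12.99 and 13.14 in Usp22-KOB. It rose in both knockouts, by 4.03 in Usp22-KOA (limma adjusted p = 1.8e-07) and by 1.15 in Usp22-KOB (limma adjusted p = 0.000701). Marveld3, of the same protein family as occludin, averaged 26.9, 11.9 and 8.19 TPM in WT, Usp22-KOA and Usp22-KOB and fell by 1.11 and 1.61.

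Lsr, a protein of the corners where 3 cells meet, fell by 0.48 and 0.90, from a WT mean of 208 TPM to 149 and 111. F11r, the adhesion molecule JAM-A, fell by 0.60 and 0.48, from 179 TPM to 118 and 129. Ildr1, a relative of Lsr named after its values were seen, had 0, 0.0582 and 0.0746 TPM in WT, against 10.1, 7.96 and 18.6 in Usp22-KOA, with 0.0899, 0.103 and 0 in Usp22-KOB. Ildr1 was thus present in Usp22-KOA and at or near 0 elsewhere, a pattern of the same direction as Cldn3 in Usp22-KOA but without a lower level in Usp22-KOB.

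Scaffold and polarity genes of the junction were lower or not called. Of 19 tested, 11 were lower in Usp22-KOA (median -0.405) and 9 in Usp22-KOB (median -0.37), and 0 were higher in either. Cgn (cingulin) fell by 1.51 in Usp22-KOA and 0.95 in Usp22-KOB, from 53.2 TPM to 18.1 and 27.2. Pard6b, a subunit of the polarity complex that positions the junction, fell by 2.13 and 1.12, from 28.1 TPM to 5.76 and 12.6, and Tjp3 (ZO-3) by 1.40 and 1.25, from 60.7 TPM to 22.7 and 25.1.

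EpCAM and the protease system that cleaves it were lower in both knockouts, as Cldn7 was. All 5 tested genes of this list were lower in Usp22-KOA (median -3.13) and in Usp22-KOB (median -1.95). Epcam measured 400, 373 and 364 TPM in WT, against 33.9, 24.7 and 54.4 in Usp22-KOA, with 25.4, 32.6 and 35.8 in Usp22-KOB. Both knockouts were far below WT and overlapped each other, and Epcam fell by 3.37 in Usp22-KOA (limma adjusted p = 4.66e-06) and by 3.57 in Usp22-KOB.

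St14 (matriptase, a membrane protease that cuts EpCAM) averaged 10.9 TPM in WT, against 0.374 in Usp22-KOA and 0.673 in Usp22-KOB, falling by 3.13 and 2.83. Spint1, an inhibitor of matriptase, averaged 39.7, 2.14 and 10.1 TPM and fell by 3.71 and 1.89. Prss8 (prostasin, a protease that acts with matriptase) averaged 3.30, 0.0898 and 0.103 TPM and fell by 1.96 and 1.95. St14 and Prss8 reached the minimum mean of 1 TPM only through their WT samples. Spint1 shared the order of Cldn4 and Ocln, with Usp22-KOA below Usp22-KOB (limma adjusted p = 6.86e-05), whereas the difference between the knockouts was not called for Epcam (limma adjusted p = 0.516) or St14 (0.219).

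Adherens junction and desmosome genes were lower in 10 of 15 tested in Usp22-KOA and higher in 1 (median -0.606), and lower in 8 and higher in 1 in Usp22-KOB (median -0.22). The desmosomal cadherin Dsg2 averaged 42.4 TPM in WT, against 3.58 in Usp22-KOA and 18.6 in Usp22-KOB, and the desmosomal plaque gene Pkp3 20.0, 2.04 and 9.02 TPM. Both fell in each knockout, Dsg2 by 3.25 and 1.15 and Pkp3 by 2.79 and 1.07. Nectin2, an adhesion molecule of the adherens junction, fell by 1.77 and 0.88. Pkp2 fell by 1.83 in Usp22-KOA, from 49.6 to 13.2 TPM, and stood at 43.4 TPM in Usp22-KOB, where it was not called (limma adjusted p = 0.0732) except after quantile normalization (0.0133), after median-of-ratios scaling (0.0243) or without the third Usp22-KOB sample (0.00392). E-cadherin (Cdh1) moved little beside these, with 400 ± 10.1 TPM in WT, 281 ± 7.56 for Usp22-KOA and 353 ± 45.5 for Usp22-KOB (SD, n = 3). It fell by 0.51 in Usp22-KOA (limma adjusted p = 0.000586), and its difference of -0.19 in Usp22-KOB was not called (limma adjusted p = 0.0999) except without the third Usp22-KOB sample (0.0024).

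**Figure D4:**
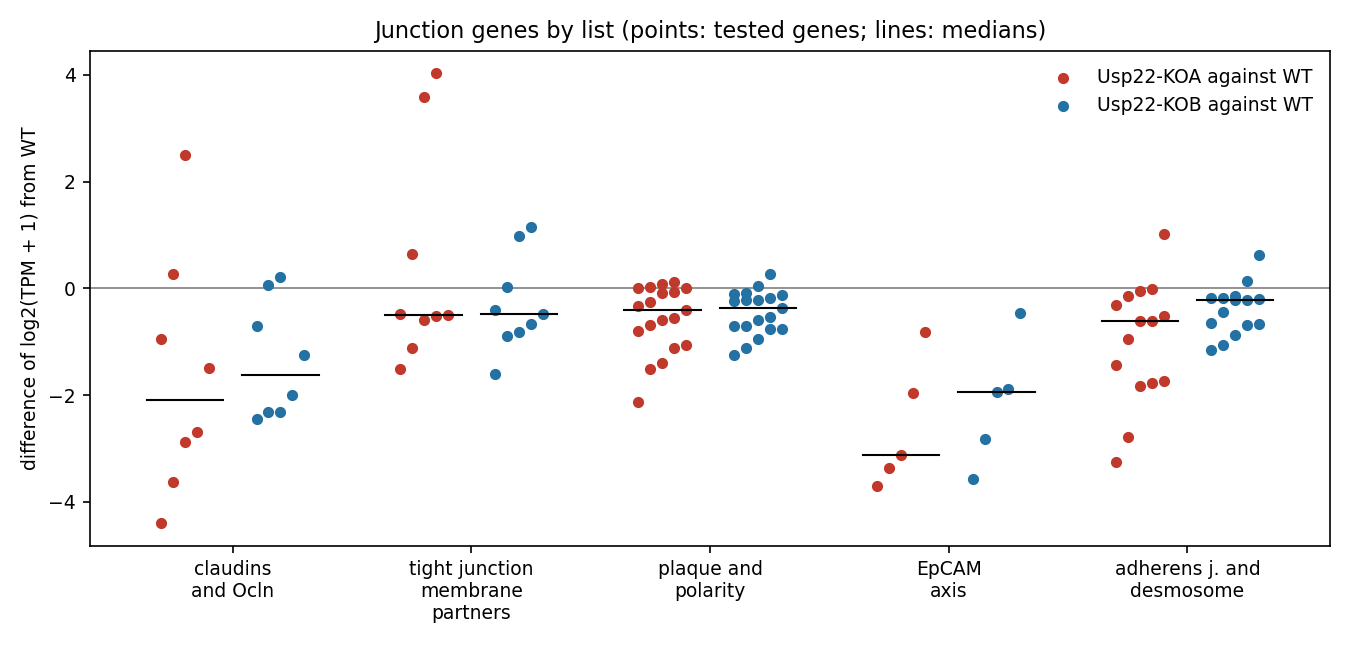
Log2(TPM + 1) difference from WT of each tested gene of the claudins and occludin and of 4 lists, with 1 point per gene and knockout and a line at each median. The EpCAM list lies lowest, with medians of -3.13 and -1.95, and the scaffold and polarity list has no gene called higher.

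Transcription and splicing factors of epithelia were called lower in 8 and higher in 3 of 15 tested in Usp22-KOA (median -0.601), and lower in 11 and higher in 1 in Usp22-KOB (median -0.64). Elf3, an epithelial ETS factor, fell by 1.74 and 1.33, from 185 TPM to 55.3 and 73.4. Foxa1 and Foxa3, forkhead factors of endoderm, were also lower, Foxa1 by 1.61 and 2.24 from 5.43 TPM and Foxa3 by 2.75 and 0.76 from 9.54 TPM. Klf4 rose, by 1.35 in Usp22-KOA and 0.94 in Usp22-KOB, from 46.1 TPM to 119 and 89.6. Cdx2, an intestinal factor named after its values were seen, took the course of Cldn3: it rose by 1.23 in Usp22-KOA, from 27.7 to 66.7 TPM, and fell by 0.43 in Usp22-KOB, to 20.4 TPM (limma adjusted p = 7.74e-07 and 0.00124).

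Of 6 repressors of epithelial junction genes, 2 were higher and 2 lower in Usp22-KOA (median -0.0251), and 1 higher and 2 lower in Usp22-KOB (median 0.114), where 56.3% and 37.1% of all genes were called. Twist1 fell by 3.10 in Usp22-KOA and fell by 1.56 in Usp22-KOB, from 18.0 TPM to 1.23 and 5.48. Twist2 rose in Usp22-KOA by 2.66, from 6.31 to 44.3 TPM, and was 7.12 TPM in Usp22-KOB (limma adjusted p = 0.556). Zeb1 rose in Usp22-KOA by 0.65, from 10.2 to 16.6 TPM, and was 10.8 TPM in Usp22-KOB (limma adjusted p = 0.519). The 1 called higher in Usp22-KOB was Zeb2, named after its values were seen. Zeb2 rose there by 1.14, from 7.05 to 17.0 TPM (limma adjusted p = 0.00407), and was 6.25 TPM in Usp22-KOA (0.534). Snai2 was called lower in both, by -0.39 and -0.45, but lost the call in Usp22-KOA after quantile normalization (-0.14, limma adjusted p = 0.365) or without the first or the third WT or the first Usp22-KOA sample, and in Usp22-KOB without the first WT or the second Usp22-KOB sample.

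The neighbours of Cldn4 and Cldn3 on chromosome 5 were read next, in a window of 100 kb to each side chosen after the values of both genes were seen. Of 15 other annotated genes there, 7 were tested. Abhd11 rose in Usp22-KOA by 0.53, from 48.6 to 70.6 TPM (limma adjusted p = 0.000682), and was 48.9 TPM in Usp22-KOB. Mettl27 rose in Usp22-KOA by 0.45 (limma adjusted p = 0.00336), and its Usp22-KOB difference of 0.16 was not called (0.219). Bud23 was called higher in both, by 0.20 and 0.23 (limma adjusted p = 0.0259 and 0.0216), and Vps37d was lower in Usp22-KOB by -0.85 (limma adjusted p = 0.01). The other 3, Abhd11os, Stx1a and Dnajc30, were not called in either knockout. Among the tested genes of the window, the changes of Cldn4 and Cldn3 were the largest in size.

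**Figure D5:**
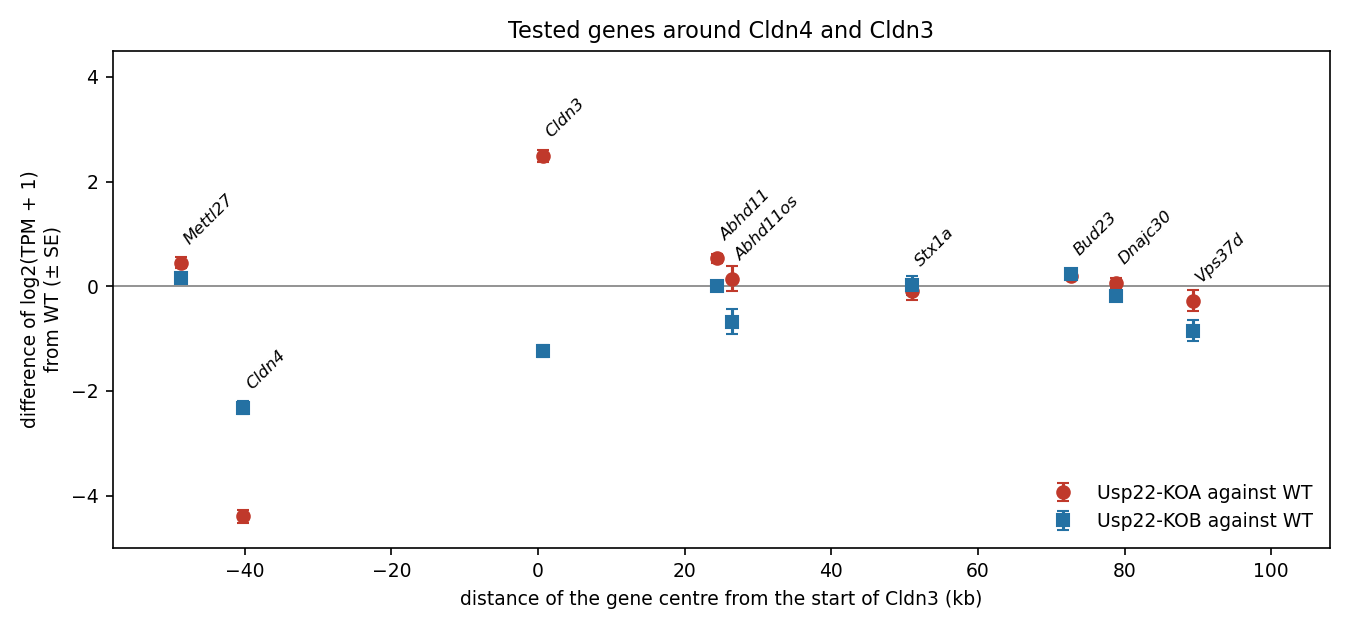
Log2 differences from WT of Cldn4, Cldn3 and the 7 other tested genes within 100 kb, by distance in kb from the start of Cldn3, with their standard errors, for each knockout. Cldn4 is at -4.40 and -2.32 and Cldn3 at 2.49 and -1.24, while the neighbours lie between -0.85 and 0.53.

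Genes whose pattern was most like that of each claudin were found by the root mean square (RMS) difference over the 9 samples between log2(TPM + 1) values centred on each gene's mean, with 11480 genes compared, each averaging 5 TPM or more in 1 group. All points share the same 9 libraries, so likeness is a description. The added 1 TPM shrinks the changes of low genes, so genes of unlike levels can come out near with unlike percentages of WT. For Ocln the nearest were Muc1 (RMS 0.190), with means of 603, 49.5 and 139 TPM in WT, Usp22-KOA and Usp22-KOB, and Pdzk1ip1 (0.210). Those nearest to Cldn4 were Stra6 (0.356), with 17.1, 0.349 and 4.57 TPM, and Serinc2 (0.358), with 129, 7.65 and 42.8 TPM. Cldn3 was most like Otop1 (0.222), at 1.15, 13.4 and 0.205 TPM, and Ceacam18 (0.239), at 4.12, 23.4 and 1.02 TPM.

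The genes nearest to Cldn7 were Ush1g, at 6.21, 0.0768 and 0.473 TPM, and Sema5a, at 10.7, 0.529 and 1.49 TPM (both 0.131). Both were lower genes than Cldn7, which averaged 81.1, 10.2 and 14.2 TPM. Lama3 (0.119), at 8.11, 0.459 and 1.19 TPM, and Tc2n (0.132) were nearest to Cldn23. For Cldn12 they were Flrt3 (0.082), at 34.2, 10.8 and 20.8 TPM, and Igsf3 (0.093), for Cldn6 Phlda3 (0.114) and Sema4f (0.122), and for Cldn2 Trp53i13 (0.046) and Gid4 (0.055). Among the claudins and occludin themselves, Cldn7 and Cldn23 were closest on this scale (0.257). As percentages of WT in Usp22-KOA and Usp22-KOB, however, Cldn23 (5% and 16.2%) lay nearer to Ocln (4.31% and 16.7%) than to Cldn7 (12.5% and 17.6%). On the log2 scale Cldn4 was nearest to Ocln (0.418), and Cldn3 was far from all, its nearest being Cldn2 at 1.47.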

How the data were processed

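RNA-seq of 9 samples, 3 each of WT, Usp22-KOA and Usp22-KOB, was available as 1 deposited table of TPM per gene, with no column left without a sample. Per the submitters' processing notes the tools and build include Salmon, DESeq2 and mm10; the sources used here do not give their versions, roles, filters or strand settings. Since TPM carries no depth, counting intervals were not computed. Values were taken as log2(TPM + 1). Genes averaging 1 TPM or more across all 9 samples (13843 of 24493, 10650 left out) were fitted together in 1 model of the 3 groups with limma 3.58.1 (R 4.3.3, empirical Bayes with a trend) and p-values were Benjamini-Hochberg adjusted over all of them, with calls at 0.05. The fit was tested on simulated data. Comparisons were each knockout with WT, the mean of both with WT, and one knockout with the other. Alternatives were other pseudocounts (0.1 and 5), filters, normalizations, designs and leaving out each sample. The 10 genes and all gene lists were chosen with earlier results of these data known. From each list the text names up to 4 tested genes, those of smallest adjusted p when both knockouts are averaged against WT, and further genes as said there; 1 gene that this rule would name is not reported here. Promoters were read from RefSeq (GRCm38.p6), and gene positions from GENCODE M21 (GRCm38, the assembly of mm10).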

Additional observations from a re-analysis of the deposited data

Results flagged for a closer look

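The effects of the knockouts differed by the direct test of Usp22-KOA against Usp22-KOB for 7 of the 8 tested genes, beside 51.7% of all genes tested, and these differences are listed because the labels give the same target gene for both. On the log2(TPM + 1) scale, Usp22-KOA minus Usp22-KOB was 3.72 for Cldn3, which rose in one knockout and fell in the other. It was -2.08 for Cldn4 and -1.30 for Ocln, which fell further in Usp22-KOA. The difference was -1.16 for Cldn6, which was called against WT in Usp22-KOA and not in Usp22-KOB. Smaller differences of the same direction were -0.80 for Cldn12, -0.70 for Cldn23 and -0.43 for Cldn7, the last of which lost its call without the second Usp22-KOB sample and Cldn23 under 4 alternatives. Fibroblast marker sums (181 to 209 TPM in Usp22-KOA, 773 to 1180 in Usp22-KOB), endothelial ones (14.2 to 20.4 and 37.7 to 55.9) and keratinocyte ones (9.999 to 13.45 and 16.9 to 18.6) did not overlap between these groups. Epithelial and leukocyte sums did. Single markers still differed between the knockouts. Of 6 epithelial markers 1 was called higher and 3 lower in Usp22-KOA, and of 8 leukocyte markers 4 lower. The part of these cells in the claudin differences was not tested.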

How the results depend on the processing

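Over the alternatives, 7 to 8 claudin and occludin genes were called for Usp22-KOA, 5 to 7 for Usp22-KOB, 6 to 8 between the knockouts and 5 to 7 for their average. The filters also changed how many of these genes were tested. For Usp22-KOB the 5 came at a mean of at least 5 TPM, where Cldn23 was not tested. The 7 came with no filter, where Cldn18 was tested and called higher. Leaving out each sample in turn gave 6967 to 8211 genes called in Usp22-KOA (7793 with all samples), 3725 to 5607 in Usp22-KOB (5129) and 5920 to 7395 between the knockouts (7158). For the average of both knockouts, 6920 genes were called, 5581 to 7384 when samples were left out, and 2946 with the 6 knockout samples as 1 group. Cldn2 in Usp22-KOB ranged from -0.049 without the third Usp22-KOB sample, a reversal, to 0.139 without the first. Averaged over both knockouts, Cldn6 was called without the second Usp22-KOA sample (-0.46) or the third (-0.25). Counts in the list of other claudins were, with no filter, 5 in Usp22-KOA and 4 in Usp22-KOB, and 1 in Usp22-KOB without the second WT, first Usp22-KOB or the third Usp22-KOB sample. In the EpCAM list 3 were called in each knockout at a mean of at least 5 TPM, where fewer genes were tested. Deviations of same-numbered samples from their group means correlated at -0.1249 to 0.2758, with 2 of 9 pairs over 0.1. Pairs of other numbers ran from -0.2349 to 0.2008, with 5 of 18 over 0.1. The same-numbered pairs of Usp22-KOA with Usp22-KOB were at 0.1868, 0.0765 and 0.2758. With so few pairs, whether the replicate numbers pair samples cannot be settled here. With the numbers as a replicate block, 7588, 4835, 6922 and 6702 genes were called for Usp22-KOA, Usp22-KOB, their difference and their average, and Cldn2 in Usp22-KOA was not called (0.26, limma adjusted p = 0.0565). Changes of genes near 0 TPM depend on the amount added before taking logs.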
